A study of Drosophila melanogaster with 12 samples.

Results

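Transcript levels were described in the control libraries of a polyA RNA-seq experiment on Kc cells, which were established from embryos of Drosophila. The 3 control libraries were chosen by their label, dsRNA against yellow, and make up 3 of the 12 libraries of the series. All 12 came from Kc 167 cells treated with dsRNA for 5 days, with 3 libraries per group. The other groups received dsRNA against dGcn5 (Gcn5 in the count table), Elp3 or nej, genes of histone acetyltransferases, and the question here was which genes the control cells expressed and at what level. Control cells were thus not untreated: they carried a dsRNA against a gene of another function, y, which encodes a pigmentation protein. Whether replicates came from separate cultures is not given in the sources used here, so p-values measure only the spread between these libraries, which may be technical.

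Hemocytes are the blood cells of the fly. Plasmatocytes, the most common kind, engulf dying cells and microbes and secrete basement membrane, crystal cells carry out melanization, and lamellocytes encapsulate parasites. The GATA factor Serpent (srp) acts at the top of hemocyte development, and Kc cells are commonly described as hemocyte-like.

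The sequence that defines the control treatment is the pair of primers used to make the yellow dsRNA template, shown here with the T7 promoter part left off. In lower case, 5′ to 3′, the gene-specific parts were as follows, and y lies on chromosome X.
yellow forward: aaaaactaagccaacgtcatc
yellow reverse: ccgtggatataggcaaaaa

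The dsRNA targets were examined in every library first. Levels are given as CPM per kb throughout: counts per 1000000 counts of the library (CPM), divided by the summed exon length of the gene in kb, always in the order of replicates 1, 2 and 3. The level of y was 5.43, 7.24 and 21.1 CPM per kb in the control libraries. It was 20.6, 7.74 and 5.83 in the dGcn5 libraries, 11.9, 5.91 and 22.7 in the libraries labelled Elp3 and 20.8, 4.06 and 11.5 in the libraries labelled nej, so that the control values lay within the range of the others. Gcn5 was at 54.6, 49.7 and 45.3 CPM per kb in the control libraries and lower, at 10.4, 15.2 and 18.6, in the dGcn5 libraries. Elp3 was at 28.6, 25.2 and 30.8 in the control libraries and far higher, at 2021, 1013 and 2110, in the libraries labelled Elp3, which goes against that label as a depletion. For nej the control levels were 12.2, 13.2 and 2.87, against 19.1, 199 and 44.8 in the libraries labelled nej. These libraries are therefore named by their labels.

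Control libraries held 22230269, 22217755 and 23198850 counts, and the other 9 held between 19102102 and 22238424. The table listed 23882 features, of which 17830 had a gene name and 13915 were protein-coding by gene ID. A count of 3, the most that a count of 0 allows per library, corresponds to 0.135, 0.135 and 0.129 CPM per kb for a gene with 1 kb of exon, a limit that covers counting error only. Replicate 3 stood apart from replicates 1 and 2 in a length-dependent way. Its level over the mean of the other two had a median of 1.69 in 344 expressed features under 500 bases and of 1.78 in 1064 features from 500 to 1000 bases. This ratio was 1.29 from 1000 to 2000 bases, 0.848 from 2000 to 4000, 0.489 from 4000 to 8000 and 0.315 from 8000 bases on. Replicate 2 over replicate 1 had medians between 0.991 and 1.02 in the same length classes. Short genes thus read higher and long genes lower in replicate 3, and each level below is given by library for that reason.

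**Figure D1:**
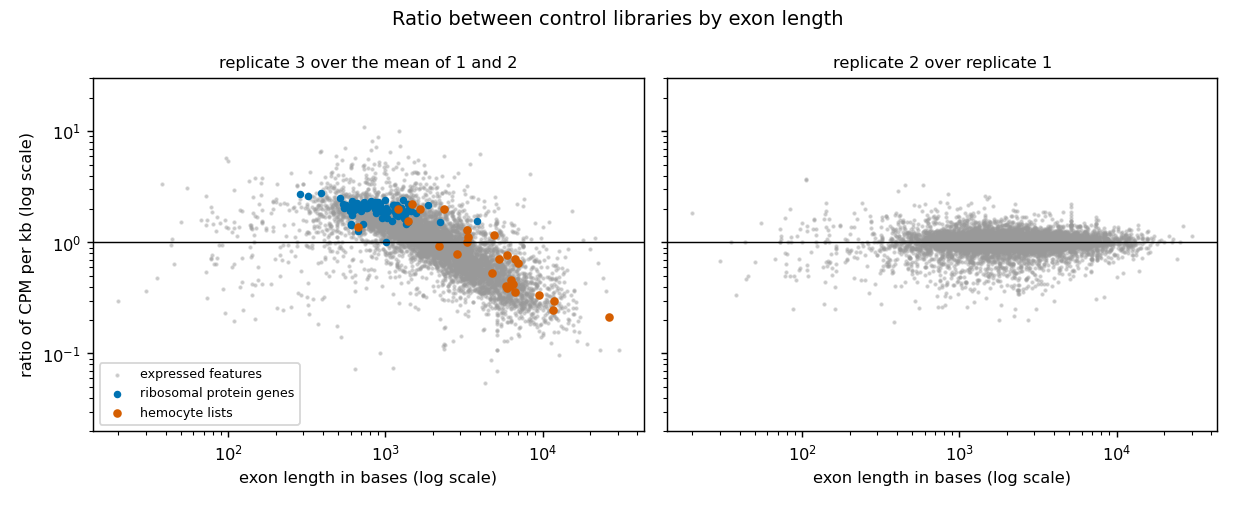
Ratio of CPM per kb between control libraries (vertical axis, log scale) against summed exon length (horizontal axis, log scale), one grey point per feature expressed in every control library. On the left, replicate 3 over the mean of replicates 1 and 2 falls from above 1 in short genes, including the ribosomal protein genes (blue), to 0.315 in the median from 8000 bases on, with the hemocyte lists (orange) spread along the trend. On the right, replicate 2 over replicate 1 stays near 1 at every length.

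A gene was called expressed when it reached 1 CPM per kb in every control library. By that measure 7811 features were expressed, of which 7111 were protein-coding, or 51.1% of protein-coding genes. Another 2770 protein-coding genes (19.9%) had no count in any of the 3 libraries, and 4034 lay in between. Among expressed protein-coding genes the median level was 23.5 CPM per kb. Counts were concentrated in a minority of features. The 79 features with a median of at least 1000 CPM per kb held 19.7% of all counts, the 732 between 100 and 1000 held 34.8%, and the 4930 between 10 and 100 held 41.9%. The 100 features with most counts took 22.4%, 23.4% and 28.4% of the library. Of the 7811 expressed features, 42.2% stayed within 1.5-fold between the highest and lowest control library, 69.9% within 2-fold and 95.7% within 4-fold.

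**Figure D2:**
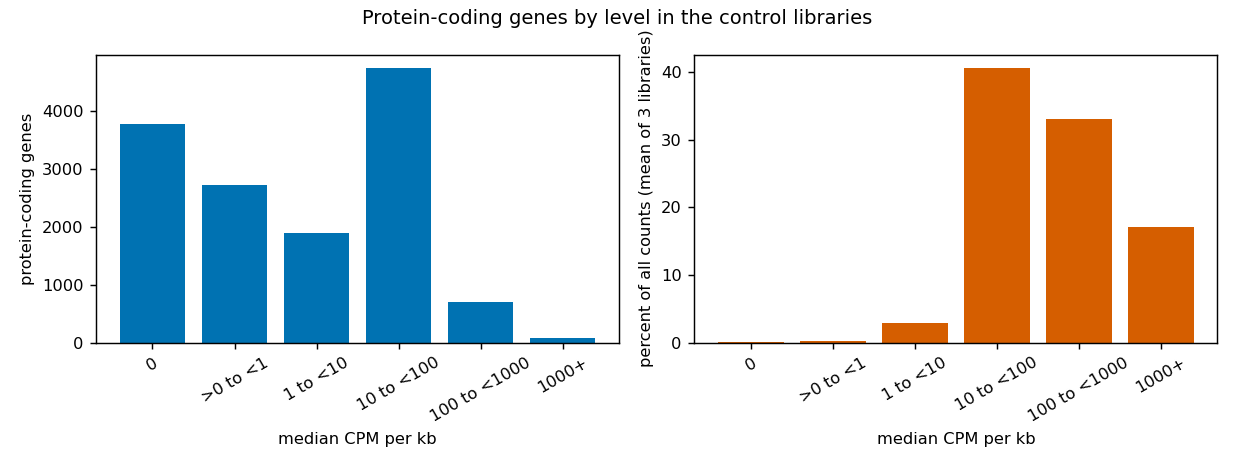
Number of protein-coding genes (left, blue bars) and percent of all counts they held (right, orange bars, mean of 3 control libraries) by class of median CPM per kb. The class from 10 to under 100 held the most genes, 4738, and 40.6% of counts, while the 77 genes at 1000 or more held 17.1%.

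The highest features were those of protein synthesis, the mitochondrial genome and the cytoskeleton. Of the 25 with the highest median level, 16 were cytoplasmic ribosomal protein genes, 3 came from the mitochondrial genome and 6 were others. The mitochondrial large ribosomal RNA, mt:lrRNA, was first with 17502, 24067 and 11273 CPM per kb, although the authors removed reads matching ribosomal RNA before alignment. The small ribosomal RNA of the same genome, mt:srRNA, was at 3.20, 2.06 and 8.88. Next in order came eEF1alpha1, which brings aminoacyl-tRNA to the ribosome, with 4778, 5037 and 4872, a mean of 4896 ± 131 (SD, n = 3). eEF2, which moves the ribosome along the mRNA, had 2869, 2768 and 2593. eEF1alpha1 and eEF2, with 2464 and 3056 bases of exon, varied little between libraries, unlike the ribosomal protein genes among the 25 highest. Over all 7 elongation factor genes the median ratio of replicate 3 to the mean of replicates 1 and 2 was 1.29. Among expressed ribosomal protein genes it was 2.02.

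All 16 ribosomal protein genes among the 25 highest read higher in replicate 3 than in both other libraries. RpL41, whose summed exon length is 320 bases, had 4383, 4583 and 11642 CPM per kb, and RpL39 (288 bases) had 1782, 1794 and 4871. RpL4 (1400 bases) had 1703, 1908 and 2745, RpLP2 (604 bases) had 1458, 1902 and 2467 and RpS4 (1449 bases) had 1745, 1696 and 3293. Of the genes given here, the shortest, RpL39 and RpL41, rose most in proportion. RpLP2 rose less than the longer RpS4, so length alone did not set the order. Others included RpL21, RpS18, RpS27A, RpL7A, RpL23, RpL27A, RpLP1, RpL10, RpL6 and RpS30, with medians from 1690 for RpS30 to 3027 for RpL21. As a family, 85 of 88 cytoplasmic ribosomal protein genes were expressed. They took 9.68%, 9.72% and 19.1% of counts, highest in replicate 3.

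Several ribosomal proteins have paralogous genes, and the copies differed in level to unequal degrees. RpS5a exceeded RpS5b by 179, 160 and 201 times in level per kb, and RpS19a exceeded RpS19b by 6.81, 6.43 and 10.5 times. RpL34b over RpL34a was closer, at 2.25, 2.59 and 2.63, and RpS14a over RpS14b closer still, at 1.30, 1.31 and 1.22. The 3 members not expressed were all second copies. RpL10Aa had no count, RpS28a had 2, 0 and 0 counts, and RpL37b had 2, 4 and 8 counts. Reads that fit both copies of a pair could have been split between them, since the treatment of multi-mapping reads is not given in the sources used here. These paralogs were singled out after their values were seen.

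The remaining features of the 25 highest were not ribosomal. mt:CoI and mt:CoIII, subunits of cytochrome c oxidase, had 2547, 3161 and 2106 and 2405, 3223 and 2392 CPM per kb. Act5C, a cytoplasmic actin, had 2071, 2313 and 2019, and Ubi-p5E, a polyubiquitin gene, had 1769, 1428 and 1915. Arc1 encodes a retrotransposon-derived Gag-like protein that forms capsids and is best known from neurons. Its level was 2153, 2022 and 2999, eleventh in the table. CR10102, annotated as a pseudogene, followed with 1881, 1767 and 1825. Both lie next to each other on the minus strand of chromosome 2R in BDGP6.32, Arc1 at 14357927 to 14360297 and CR10102 at 14360433 to 14361780. Arc2, the paralog next in line at 14361924 to 14362825 on the plus strand, had 206, 151 and 509 CPM per kb and was added after its values were seen.

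**Figure D3:**
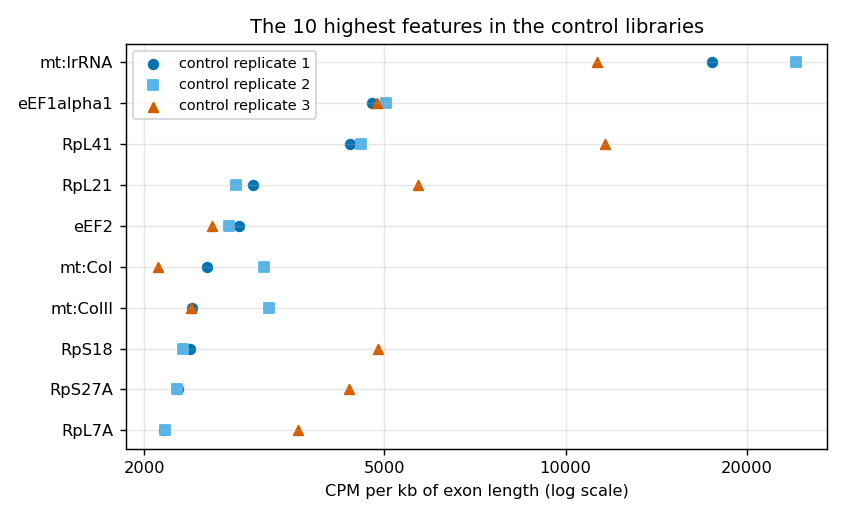
Level in CPM per kb (horizontal axis, log scale) of the 10 features with the highest median over the 3 control libraries, in order from the top, with one symbol per library. Replicate 3 (orange triangles) lies to the right of replicates 1 and 2 for the 5 ribosomal protein genes shown, whereas eEF1alpha1 and eEF2 have all 3 symbols close together and mt:lrRNA reads lowest in replicate 3.

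Hemocyte identity genes were expressed. Of 33 genes in 3 hemocyte lists, 27 (81.8%) were expressed, with a median of 49.9 CPM per kb. Of 65 marker genes in 11 lists of other tissues, 9 (13.8%) were expressed, with a median of 0.0775. The corresponding share over all protein-coding genes was 51.1%. The lists were chosen with earlier results of these data known, so these shares describe the lists and do not test cell identity. The summed level of the hemocyte genes was 4213, 3894 and 4334 CPM per kb, and that of the other tissues' markers was 213, 214 and 230. Most of the hemocyte sum came from the list of matrix and secreted proteins, with 3189, 3045 and 3692. The hemocyte core gave 531, 452 and 232. In bulk RNA, fewer cells of a type and less RNA per cell cannot be told apart.

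All 5 genes of the hemocyte core were expressed in every control library. Hml encodes hemolectin, a clotting protein of larval hemocytes, and had 328, 298 and 93.1 CPM per kb, a mean of 240 ± 128 (SD, n = 3). Its exons sum to 11756 bases, and replicate 3 was the low one. eater, a phagocytic receptor for bacteria, had 82.6, 49.7 and 67.3 (66.5 ± 16.5). Pxn, peroxidasin, a peroxidase of the extracellular matrix, had 65.7, 49.9 and 45.0 (53.6 ± 10.8). srp itself had 49.1, 49.6 and 19.9 (39.5 ± 17.0), and 938 bases of its exons overlap lncRNA:CR44133 on the same strand, whose reads cannot be told apart there. NimC1, another phagocytosis receptor, had 5.70, 4.36 and 6.47 (5.51 ± 1.07). Hml was the highest and NimC1 the lowest of the 5 in each library. Hml exceeded NimC1 by 57.5, 68.4 and 14.4 times. The range of Pxn overlapped those of eater and srp, and eater read above srp in each library, by little in replicate 2 (49.7 against 49.6).

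Other plasmatocyte genes were uneven. In the list of plasmatocyte receptors and regulators, 9 of 14 were expressed, with a median of 5.77 CPM per kb. He, hemese, a surface sialoprotein of hemocytes, was the highest by median with 179, 109 and 197, though below Pvr in replicate 2. Pvr, the receptor of the PDGF and VEGF family that hemocytes need for migration and survival, had 134, 128 and 46.8, and NimB5, a secreted Nimrod protein, had 61.2, 45.2 and 83.2. Values for ush, crq and drpr were added for their roles. ush, a partner of GATA factors, had 56.6, 44.9 and 35.7, and the engulfment receptors crq and drpr had 26.9, 30.5 and 22.4 and 22, 23.2 and 11.9. At the other end, gcm and gcm2, which specify plasmatocytes in the embryo, had no count in any control library. Such a count allows levels of up to 0.0621 for gcm and 0.0580 for gcm2. NimC4, an engulfment receptor also called Simu, had 1, 1 and 18 counts.

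Matrix and secreted proteins of hemocytes were the highest of the 3 lists, with 13 of 14 expressed and a median of 178 CPM per kb. The laminin subunits LanA, LanB1 and LanB2, which assemble into a basement membrane trimer, were close in level. LanB1 had 406, 386 and 181, LanB2 had 301, 349 and 127, and LanA had 334, 335 and 82.9. Between LanB1 and LanB2 the ratio was 1.35, 1.11 and 1.43. The collagen IV chains Col4a1 and vkg, which share a trimer, had 92.5, 112 and 41.3 and 67.0, 76.2 and 30.3, a ratio of 1.38, 1.47 and 1.36. LanB1 exceeded Col4a1 by 4.39, 3.45 and 4.39 times. These ratios varied less across libraries than the levels, whereas LanA over LanB2 fell from 1.11 and 0.958 to 0.654 in replicate 3.

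SPARC, a collagen-binding matrix protein, had 340, 305 and 646 CPM per kb, higher in replicate 3. The secreted ferritin chains Fer2LCH and Fer1HCH had 678, 634 and 1306 and 400, 384 and 789, and their ratio was 1.69, 1.65 and 1.65. Fer2LCH was the highest gene of any hemocyte list. fon, fondue, a clotting protein, was the only member of the matrix list not expressed, with 4.33, 0.751 and 5.61.

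Genes of the other hemocyte classes split. Of 6 crystal cell genes only Naam, a nicotinamidase, was expressed, with 47.2, 46.7 and 46.6 CPM per kb. lz, the Runx factor that specifies crystal cells, had 11, 8 and 7 counts. The prophenoloxidases of crystal cells, PPO1 and PPO2, had 4, 1 and 0 counts and 0, 0 and 1 counts. All 6 lamellocyte genes were expressed. mys, the beta integrin, had 132, 140 and 52.2, the kinase gene msn had 104.8, 112 and 32.0 and cher, filamin, had 97.2, 96.4 and 27.4, and many cell types use these genes. The more restricted members were lower. PPO3, the lamellocyte prophenoloxidase, had 18.4, 20.6 and 16.5, atilla, a surface antigen, had 4.96, 2.10 and 5.27, and ItgaPS4, an integrin alpha chain, had 4.34, 1.49 and 1.09.

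In the list of lymph gland progenitor genes 3 of 6 were expressed. Tep4, a thioester protein that is also in the matrix list, had 204, 133 and 196 CPM per kb. dome, the JAK/STAT receptor, had 15.2, 17.3 and 6.03, and ptc, the Hedgehog receptor, had 4.61, 5.54 and 1.09. shg, E-cadherin, just missed the threshold in replicate 3, with 4.70, 4.29 and 0.997. kn (collier), which maintains the progenitor niche, had 0, 2 and 0 counts and Antp had 1, 0 and 0.

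**Figure D4:**
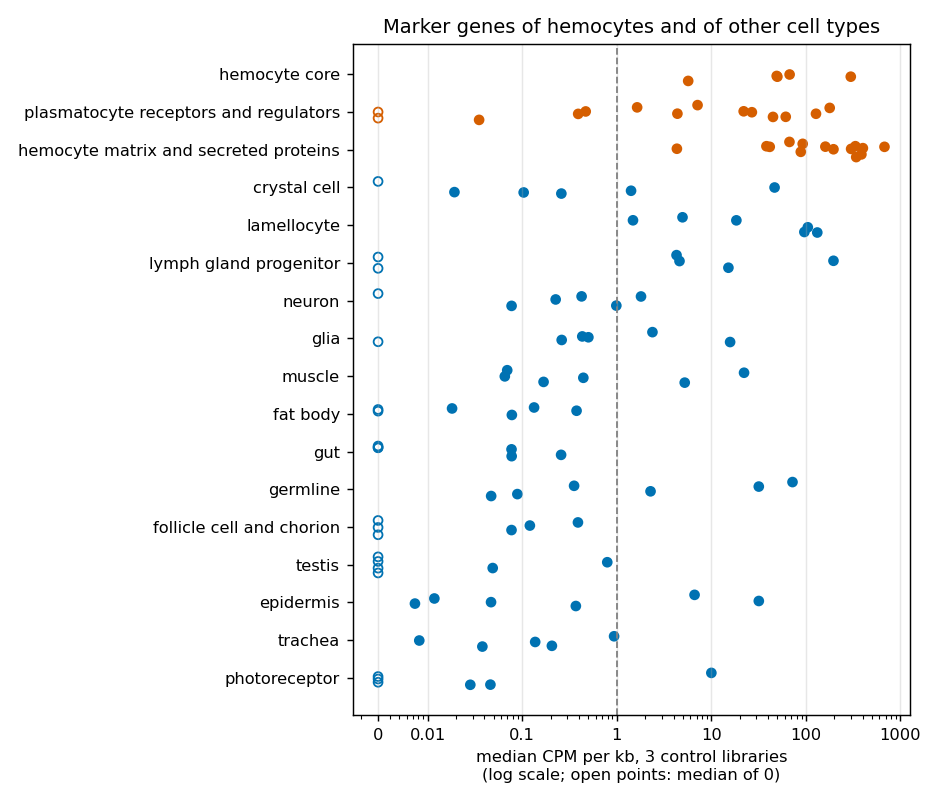
Median level over the 3 control libraries in CPM per kb (horizontal axis, log scale) of each marker gene, one point per gene, with the 3 hemocyte lists in orange and all other lists, crystal cells and lamellocytes included, in blue. Open points are genes with a median of 0, placed at the left edge, and the dashed line marks 1 CPM per kb, which had to be reached in every library for a gene to count as expressed. The points of the hemocyte core all lie right of that line, and those of the fat body, gut, follicle cell, testis and trachea lists all lie left of it.

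Markers of other tissues were mostly near 0. None of 6 neuron, 6 fat body, 6 gut, 6 follicle cell, 6 testis and 5 tracheal genes was expressed. Among the neuron genes, VAChT, the vesicular acetylcholine transporter, had no count, and brp, the active zone protein Bruchpilot, reached 1.87, 1.81 and 0.875 CPM per kb. Lsp1alpha, a larval storage protein of the fat body, alphaTry, a gut trypsin, and tj, a factor of gonadal somatic cells, had no count. In the glia list repo had 2, 0 and 0 counts, while nrv2, a subunit of the sodium pump, had 15.8, 17.3 and 14.3 CPM per kb.

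The 9 exceptions were moody, nrv2, Mef2, Mlc2, bam, aub, tyn, Cpr49Ac and norpA. The highest was aub, a Piwi-family protein of the germline piRNA pathway, with 72.2, 79.4 and 56.3 CPM per kb. bam, a differentiation factor of germ cells, had 31.8, 31.8 and 20.3. In the same list vas, the germline helicase Vasa, had 0.354, 0.492 and 0.151 and nos had 2.28, 2.41 and 0.606, so that neither was expressed. tyn, a zona pellucida domain protein of the epidermal surface, had 33.3, 31.8 and 29.6. Mlc2, myosin light chain, had 22.2, 16.1 and 76.0, whereas the muscle myosin heavy chain Mhc had 0.223, 0.0696 and 0.0666. norpA, phospholipase C of phototransduction, had 10.02, 11.7 and 3.03, with the rhodopsin gene ninaE at 1, 0 and 2 counts.

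Paralogs of the cytoskeleton and of translation elongation differed widely in level. Among 6 actins, of which 3 were expressed, Act5C exceeded Act42A (452, 439 and 477 CPM per kb) by 4.58, 5.27 and 4.23 times. The muscle actins Act57B, Act79B and Act88F were all below 1 CPM per kb. The remaining member, Act87E, was expressed at a low level, between 3.21 and 4.34 CPM per kb. Of 10 tubulins, 7 were expressed. alphaTub84B had 1443, 1520 and 1388, and betaTub56D had 772, 837 and 842, ahead of betaTub60D with 566, 500 and 509. The testis form betaTub85D had 2, 1 and 3 counts. All 7 elongation factor genes were expressed, and eEF1alpha2 was the lowest with 2.74, 3.98 and 1.01. eEF1alpha1 over eEF1alpha2 was 1742, 1265 and 4842 times.

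Glycolytic enzymes were expressed in 12 of 13 cases, with a median of 178 CPM per kb. Gapdh2 had 929, 990 and 1369, and Ldh, lactate dehydrogenase, had 442, 743 and 393. The exception was the hexokinase Hex-C, with 3, 1 and 0 counts, while Hex-A had 98.2, 93.7 and 43.9.

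Most of the listed Hox and segmentation genes were silent or nearly so, whereas srp, GATAd and h were expressed. Of 5 GATA factors srp and GATAd were expressed, and srp exceeded GATAd (12, 11.6 and 5.14 CPM per kb) by 4.09, 4.27 and 3.87 times. grn had no count. None of 8 Hox genes was expressed: lab, pb and abd-A had no count, Scr, Antp, Ubx and Abd-B had at most 2 counts in any library, and Dfd had 1.18, 0.493 and 1.01. Of 15 segmentation genes only h, hairy, a bHLH repressor, was expressed, with 92.5, 103 and 59.5. Another 4, tll, ftz, prd and en, had no count.

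The listed Y-linked genes were close to undetected, and Sxl was expressed. Of these 11 fertility and related genes none was expressed and 9 had no count, among them the dynein genes kl-2 and kl-3, with 13386 and 13882 bases of exon. kl-5 had 1 count and WDY 8 counts, all in replicate 1. FDY, a Y-linked gene outside the list, was expressed with 43.7, 51.0 and 43.6 CPM per kb. Reads shared with its autosomal relative vig2 (311, 336 and 321) cannot be told apart. Sxl, the switch gene of female development, had 31.0, 27.1 and 12.1 CPM per kb. msl-2, whose protein starts male dosage compensation, had 1.23, 1.57 and 0.718, and the male RNAs lncRNA:roX1 and lncRNA:roX2 had 5, 4 and 0 and 2, 1 and 4 counts. Other members of the compensation complex were expressed: mle had 15.9, 15.1 and 9.27, and mof had 13.1, 14.1 and 6.09. Counts over summed exons do not separate splice forms or show protein. The levels of Sxl, msl-2 and the listed Y-linked genes therefore do not by themselves give the sex of the cells.

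By chromosome, 55.7% of 2169 protein-coding genes on X were expressed, and between 46.5% and 51.8% on the arms 2L, 2R, 3L and 3R. The median level of the expressed genes was 21 CPM per kb on X, whose expressed genes had a median exon length of 2297 bases. It lay between 23.2 and 24.7 on the 4 autosomal arms, where median lengths were 1954 to 2043 bases. Chromosome 4 had 53 of 80 genes (66.3%) expressed. Their median was 30.4 and 27.8 in replicates 1 and 2 and 12.2 in replicate 3, at a median exon length of 4514 bases.

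In the ecdysone pathway 6 of 9 matched genes were expressed, all at low level. usp, the partner of the ecdysone receptor, had 9.62, 9.56 and 6.81 CPM per kb, and EcR had 1.79, 2.10 and 0.425. The response gene Eip75B had 7.14, 6.14 and 3.47, and Hr3 had no count. Of 8 receptor genes for growth factors and insulin, Pvr and InR were expressed. InR, the insulin receptor, had 22.1, 22.4 and 2.79, a low value in replicate 3 for a gene with 11367 bases of exon. Egfr had 10, 2 and 21 counts.

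The 10 longest named features without a count in any control library came from several functions. Of these, kl-3 and kl-2 are Y-linked, uif encodes a large apical membrane protein, Shab is a potassium channel, Fife is a presynaptic scaffold, nAChRalpha5 is an acetylcholine receptor subunit and Hr3 is a nuclear receptor. lncRNA:CR43314 is noncoding. CG15465 and CG46320 overlap rg and sif over their whole length on the same strand, and Hr3 overlaps other features over 8655 bases, so a count of 0 there says little. For Shab (11359 bases) a count of 0 allows up to 0.0119 CPM per kb.

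The control libraries were set against the other groups to see whether their hemocyte profile differed. Of the 33 hemocyte genes, 0 were called in each of the 3 comparisons in the quasi-likelihood fit of edgeR, with p-values adjusted by Benjamini-Hochberg across every feature tested. Over all features the share called was 0% of 9820 for dGcn5, 0.0101% of 9915 for the libraries labelled Elp3 (Elp3 itself, log2 difference 5.91, adjusted p = 0.0136) and 0% of 9816 for those labelled nej. At an unadjusted p under 0.05 in edgeR these comparisons had 360 of 9820, 383 of 9915 and 358 of 9816 features. The hemocyte genes among these were 4 of 29, 4 of 30 and 4 of 29 tested. Of the hemocyte genes tested, 26, 24 and 22 had a log2 difference below 0, and 3, 6 and 7 above 0. In DESeq2, 8 of 31, 4 of 32 and 8 of 32 hemocyte genes had an unadjusted p under 0.05. Over all features with counts these were 550 of 16202, 603 of 16458 and 568 of 16298. DESeq2 called 47, 24 and 38 features, or 0.44%, 0.215% and 0.335%. Its calls held 1, 1 and 0 hemocyte genes: NimB5 was lower in the dGcn5 libraries (log2 difference −1.97, DESeq2 adjusted p = 0.0489) and eater lower in those labelled Elp3 (−1.89, adjusted p = 0.0101). Among members of the other lists DESeq2 also called Gcn5 lower in the dGcn5 libraries (−1.78, adjusted p = 1.23e-05), Elp3 higher in its comparison (5.92, adjusted p = 2.12e-51), and nej (3.26, adjusted p = 0.0131) and Lsp1beta (2.64, adjusted p = 0.000707) higher in the libraries labelled nej. Lsp1beta, a larval storage protein of the fat body, had 23, 16 and 54 counts in the controls. The 3 comparisons share the control libraries. With replicate numbers as a block, edgeR called 2 features in the nej comparison: SKIP was higher (log2 difference 2.76, adjusted p = 0.0383) and CG15347 lower (−2.41, adjusted p = 0.0101) in the libraries labelled nej. Neither is a hemocyte list member.

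Group means of the 5 core genes lay below the control mean in each other group, except for srp in the libraries labelled nej (40.7 against 39.5), and none of these differences passed the edgeR test. eater had 26.2, 16.5 and 61.6 CPM per kb in the dGcn5 libraries, 10.4, 15.4 and 29.1 in those labelled Elp3 and 20.2, 6.55 and 34.9 in those labelled nej, against 49.7 to 82.6 in the controls. Only the third dGcn5 library overlapped the control range. The share of all features with such a separation between the controls and a single group was not counted. The edgeR log2 difference from control was −0.99 ± 0.448 (SE, adjusted p = 0.984), −1.88 ± 0.406 (adjusted p = 1) and −1.69 ± 0.547 (adjusted p = 0.968). Hml overlapped the controls in every group, since its control range ran from 93.1 to 328 and the others from 31.2 to 287. Median log2 differences of the 5 core genes were −0.89, −0.80 and −0.99, beside −0.03, −0.02 and 0.01 over all features tested. Over the hemocyte genes that passed the filter (29, 30 and 29 of 33) the medians were smaller, −0.53, −0.53 and −0.33, and for the matrix list they were −0.41, −0.45 and −0.06.

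Length dependence also differed among the other libraries. Against the mean of control replicates 1 and 2, the log2 level fell by 0.50 per doubling of length in control replicate 3, and by 0.26, 0.36 and 0.10 in the dGcn5 libraries. The slopes were −0.51, 0.03 and 0.01 in the libraries labelled Elp3 and 0.06, 0.09 and −0.17 in those labelled nej. Whether length dependence bears on the level of eater or of the other core genes was not tested. Of the 7811 features expressed in the controls, 7282 (93.2%) reached the threshold in all 9 other libraries too, and of the 8652 at 0 in the controls, 6521 (75.4%) were at 0 everywhere. All 3 control values lay above all 9 others for 45 expressed features (0.576%) and below them for 43 (0.551%). Among list members, expressed or not, eEF2 lay below all others, with 2593 to 2869 in the controls and 2926 to 3577 elsewhere, as did Lsp1beta, with 0.262 to 0.847 against 1.32 to 3.49. Vm26Aa, a vitelline membrane gene, lay above, with 2, 1 and 4 counts against none in the other libraries. Lsp1beta and Vm26Aa did not reach the threshold, so the shares above do not cover them. Whether such separations exceed what unrelated labels would give was not tested.

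**Figure D5:**
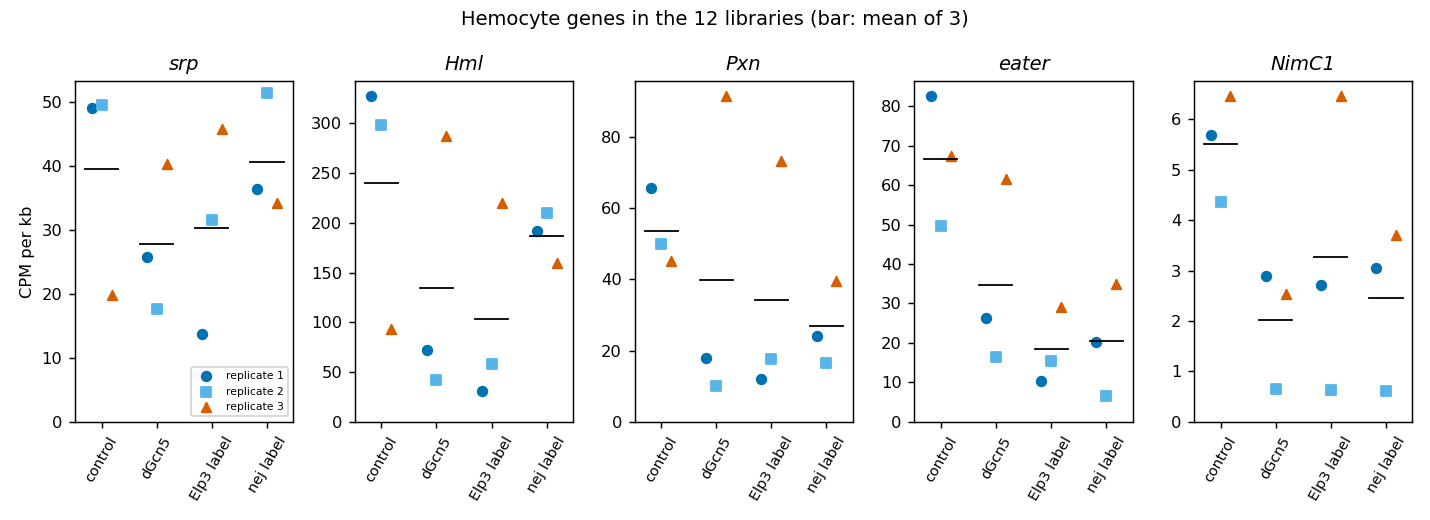
Level of the 5 hemocyte core genes in CPM per kb (vertical axes, linear and starting at 0) in the 12 libraries, grouped as control, dGcn5 and the libraries labelled Elp3 and nej, with one symbol per replicate and a bar at the mean of 3. For eater the control values of 49.7 to 82.6 lie above all others except the third dGcn5 library at 61.6, and for Hml and srp the groups overlap. For NimC1 the controls lie above all dGcn5 and nej-labelled values, and for Pxn above all nej-labelled values. The share of all features separated from a single group in this way was not counted, so these placements only describe the plot.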

How the data were processed

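PolyA RNA from Kc cells was sequenced as stranded libraries, 1 per sample. Reads were trimmed by the authors, cleared of ribosomal RNA with SortMeRNA, and aligned to BDGP6.32 with STAR and the authors deposited raw counts per feature from featureCounts, one column per library. The deposited Length column, in bases, gives the summed exon length. Whether counting used strand, molecular identifiers or multi-mapping reads is not given in the sources used here. 0 columns of per-sample values were left out.

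Levels were computed as counts per 1000000 counts of the library (CPM), divided by Length in kb (CPM per kb). A feature was expressed at 1 CPM per kb or more in every control library. Biotypes were matched by gene ID to Ensembl (23801 of 23882 features), and coordinates are those of the deposited table. Of 215 gene names in the lists, 213 matched. Named genes were the 25 highest by median level, up to 6 members per list from the top and bottom of its order with all 5 core genes, the dsRNA targets, the 10 longest named features without a count, the 10 named features with a mean of at least 10 CPM per kb that varied most, and list members called in a comparison. A member of the 25 highest is not reported here by name. Other names were chosen after their values were seen. The members and lists were chosen with earlier results of these data known.

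Control libraries were compared with each other group by edgeR 4.0.16 (R 4.3.3; TMM, quasi-likelihood test, 6 libraries per comparison, filterByExpr with a minimum count of 10, adjusted p under 0.05), after the code was tested on simulated data. DESeq2 1.42.0, other scalings and filters, a fit of all 12 libraries, a replicate block and leaving out each replicate were alternatives. The main tests were unpaired for every group, and pairing by number entered only through the replicate block. Deviations of same-numbered libraries from their group means correlated at 0.14, 0.47 and 0.63 between the controls and the libraries labelled nej. Any pairing in that comparison would rest on these correlations and not on the labels. They do not bear it out for control replicate 1, which correlated best with replicate 2 labelled nej. Control replicates were not duplicates: chi-square per degree of freedom was 27.5, 331 and 379 for pairs 1 and 2, 1 and 3, and 2 and 3.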

Additional observations from a re-analysis of the deposited data

How the results depend on the processing

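Expressed features numbered between 7168 and 8463 under the alternatives, and features without counts between 8652 and 11629, the latter when up to 3 counts were taken as none. Ribosomal protein genes took 9.70% of counts without control replicate 3 and 14.4% without replicate 1 or 2, against 12.8% ± 5.44 (SD, n = 3), and 25 to 28 of the 33 hemocyte genes were expressed. DESeq2 called 47 features for dGcn5, 24 for the libraries labelled Elp3 and 38 for those labelled nej, where edgeR called 0, 1 and 0. The number of calls in the Elp3 comparison ranged from 0 to 1 when replicates were left out, and the call of Elp3 was lost without control replicate 1, 2 or 3 or replicate 3 labelled Elp3. One fit of all 12 libraries gave 1 call for nej. With the replicate block, the nej comparison gave 2 calls and the Elp3 one 0, and for dGcn5 the number stayed at 0. In the dGcn5 and Elp3 comparisons the libraries share only a number (correlations −0.12, 0.20 and −0.01, and −0.64, 0.72 and −0.10), and not every library correlated best with its own number. In the nej comparison too, control replicate 1 correlated best with replicate 2 labelled nej. The block changed no other call. For dGcn5, features at an unadjusted p under 0.05 rose from 360 to 1740 without control replicate 3 and to 1469 without dGcn5 replicate 3, with 0 calls in both. For Elp3 they ranged from 149 without control replicate 1 to 1127 without replicate 3 labelled Elp3 (383 with all libraries), and for nej from 227 without control replicate 1 to 648 without replicate 3 labelled nej (358 with all), with 1132 under the block. The lowest count for dGcn5 was 158, without dGcn5 replicate 1. Causes were not tested. Depth limits genes under about 3 counts per library, and 3 libraries with unequal length dependence limit comparisons of long with short genes.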

Other observations

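Some features varied far more between control libraries than the rest. Among named features with a mean of at least 10 CPM per kb, mir-2282 varied most, with 98, 128 and 1 counts in replicates 1, 2 and 3. GstD2 and GstD10, glutathione S-transferases of one gene cluster on 3R, had 34.3, 9.01 and 236 and 13.7, 4.42 and 65.9 CPM per kb, lowest in replicate 2 and highest in replicate 3. GstD1 of the same cluster, added after its values were seen, had 897, 604 and 2297. The same order of libraries held for CG2065 (18.4, 5.40 and 88.2), CG9616 (19.3, 4.91 and 85.1), CG8157 (11.4, 4.70 and 66.4) and CG4752 (7.42, 2.19 and 29.8), the last with 3995 bases of exon. In the opposite direction, Sf3b3, a splicing factor subunit, had 65.7, 69.3 and 3.65, and 2508 of its 4329 bases overlap lncRNA:CR45184 on the same strand. The lncRNA:CR44718 had 502, 450 and 37 counts and asRNA:CR45891 had 202, 250 and 17.

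Chemosensory families were mostly silent, with few expressed members: 3 of 60 odorant receptors, 4 of 60 gustatory receptors and 5 of 66 ionotropic receptors. Gr94a reached 58.8, 48.3 and 54.3 CPM per kb and Ir68a 33.2, 27.8 and 35.5, beside 49.1, 49.6 and 19.9 for srp. Neither gene's exons overlap another feature in the table. Obp44a, an odorant-binding protein, had 25, 12.3 and 121. Among 115 histone features 4 were expressed, led by the replication-independent variant His3.3B with 599, 624 and 490, and 100 had no count. The libraries were made from polyA RNA, so these counts say nothing of histone transcripts without a polyA tail. Of 5416 transposable element insertions 297 were expressed, and insertions took 2.30%, 2.44% and 1.34% of counts. On the Y chromosome FDY was the 1 expressed protein-coding gene of 23, with 43.7, 51.0 and 43.6 CPM per kb. Besides FDY, the Y pseudogenes CR40801 (11.4, 12.3 and 6.56) and CR41506 (5.75, 5.71 and 4.25) and a transposable element insertion passed the threshold. FDY's autosomal relative vig2 had 311, 336 and 321, and reads shared by such copies cannot be told apart. All of these genes outside the most variable ones were chosen after their values were seen.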
